A study of Mus musculus with 4 samples.

Results

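The genes examined were 10 of the NLRP3 inflammasome and of the inflammatory cytokines that accompany it, picked by symbol from the 25655 genes of the deposited liver table. They were Nlrp3, Pycard, Casp1, Gsdmd, Il1b, Il18, Tnf, Il6, Ccl2 and Tlr4, and each symbol matched a single row. Reads were counted in mouse liver from 2 HFD-WT and 2 HFD-KO libraries. HFD-WT mice were ADAR2+/+/GluR-B R/R and HFD-KO mice were ADAR2-/-/GluR-B R/R, so both groups carried the GluR-B R/R allele that keeps ADAR2-deficient animals alive. The mice had a B6129S background and came from intercrosses of heterozygous animals, and the ADAR2 allele was inherited and not restricted to the liver. The study kept to males for the stage that included sequencing, although the library labels do not give the sex. The high-fat diet was given for 12 weeks from 5 weeks of age, to an age of 17 weeks. The study names more mice per group for this experiment than there are libraries analysed here. Whether a library holds RNA of a single mouse or of a pool is not given in the sources used here, so the p-values measure only the spread between these libraries. Livers from chow-fed mice were not analysed here. The comparison asked whether transcripts of the inflammasome and of these cytokines differed between the genotypes under the high-fat diet.

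NLRP3 is a cytosolic sensor of danger signals such as crystals, extracellular ATP and bacterial toxins. On activation it recruits the adaptor ASC, encoded by Pycard, which gathers pro-caspase-1, and the active protease cleaves pro-interleukin-1 beta, pro-interleukin-18 and gasdermin D. The amino-terminal part of gasdermin D forms pores in the membrane, through which the cytokines leave the cell and which can end in pyroptosis. TLR4, the lipopolysaccharide receptor, acts through NF-kB to raise the transcription of Nlrp3 and Il1b, a step called priming, and of the cytokine genes Tnf and Il6 and the chemokine gene Ccl2. In fatty liver these genes are studied mostly in Kupffer cells, the resident macrophages. Cleavage, assembly and secretion take place on proteins and are not seen in counts of transcripts.

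The total count was between 24480798 and 28691330 per library. Counts were scaled by the TMM method to CPM, the read count relative to a common library size, and 12967 genes passed the filter on low counts and were tested by edgeR's quasi-likelihood test. An adjusted p under 0.05 was found for 10 genes, which is 0.0771% of those tested. Adarb1, the targeted gene, stood at 15.7 and 19.8 CPM in the HFD-WT libraries and at 6.23 and 9.55 CPM in the HFD-KO libraries, a log2 fold change of -1.17 (SE 0.20, edgeR adjusted p = 0.159), so the counts were lower in both libraries labelled HFD-KO. Its adjusted p was 0.040 with the replicate number as a block, 0.00040 with DESeq2's Wald test and 0.0025 with no filter on low counts. With a library left out, it was 0.188 and 0.971 without HFD-WT replicate 1 and 2, and 0.00023 and 3.1e-07 without HFD-KO replicate 1 and 2. A fit without an HFD-KO library takes the spread from the HFD-WT libraries alone and assumes that the lone HFD-KO library varies as they do. The HFD-WT libraries varied less between themselves (chi-square per gene 10.3, against 41.0 for HFD-KO), and such fits called 705 and 411 genes, so their adjusted p values below are given as values only. Adar, which encodes ADAR1, had a log2 fold change of 0.04 (SE 0.098, edgeR adjusted p = 0.929). Albumin transcripts took 52676 to 66104 CPM, in keeping with the tissue label. HFD-KO replicate 1 stood apart in lymphocyte transcripts, with 125.8 CPM summed over 8 B and plasma cell markers against 15.7 to 19.4 CPM in the other libraries, and 10.3 CPM over 10 T and NK cell markers against 3.56 to 6.03 CPM.

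None of the 9 genes of the set that could be tested showed a difference between the genotypes by edgeR's quasi-likelihood test. The adjusted p values lay between 0.892 for Casp1 and 0.987 for Nlrp3, 0 of 9 had an unadjusted p under 0.05, and DESeq2's Wald test called 0 of them, giving no adjusted p for Tnf. Among all genes tested, 8.98% had an unadjusted p under 0.05, 4.25% with higher and 4.73% with lower counts in HFD-KO. The log2 fold changes ran from -0.04 for Ccl2 to 0.39 for Tnf with a median of 0.06, beside a median of 0.0068 over all genes tested. For each of the 9 genes the values of the 2 groups overlapped, whereas the groups did not overlap for 40.8% of all genes tested, 20.5% with HFD-KO above and 20.3% with HFD-KO below. Il6 had too few reads to be tested.

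**Figure D1:**
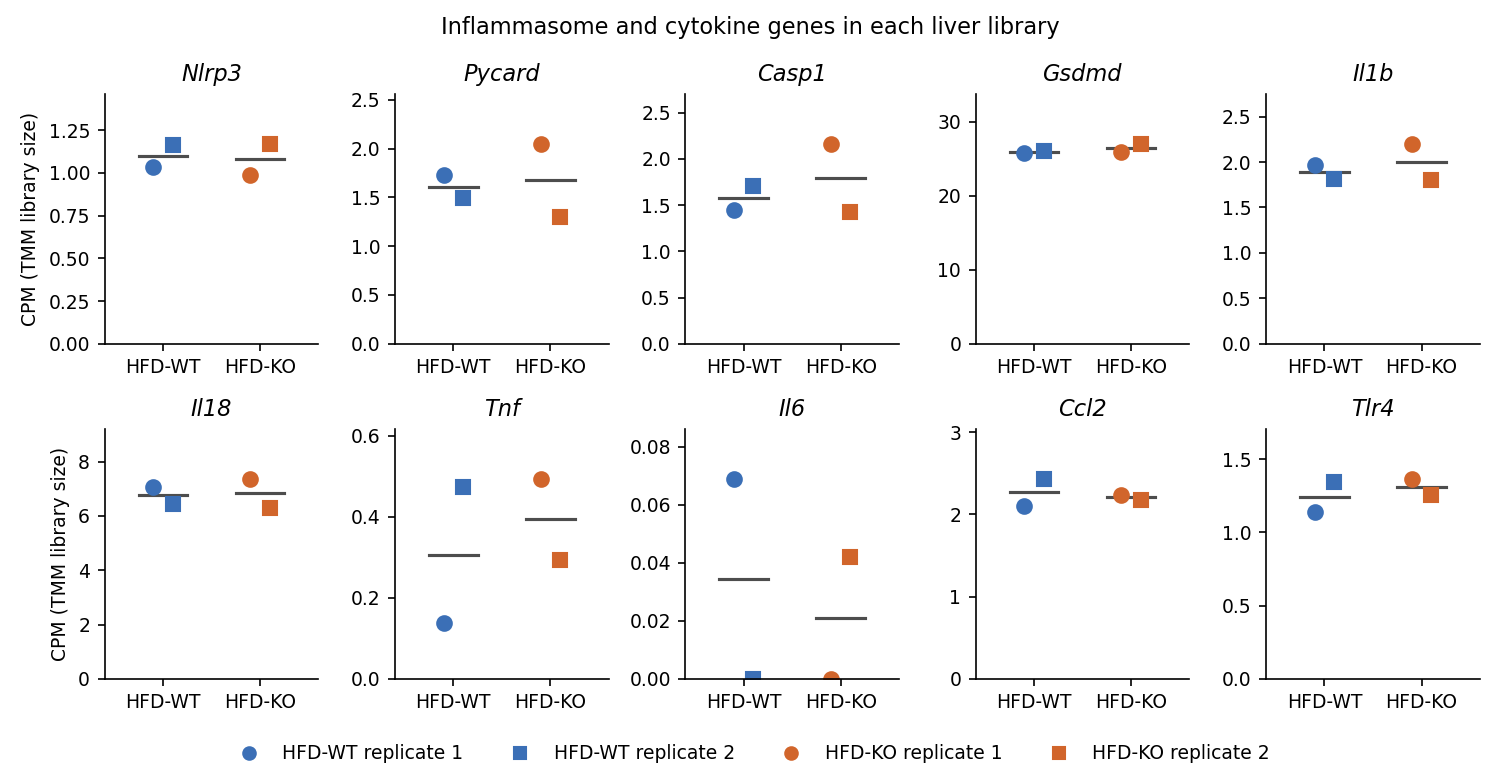
CPM with the TMM-scaled library size (vertical axes, each starting at 0) for the 10 genes in every library, with HFD-WT in blue, HFD-KO in orange, circles for replicate 1, squares for replicate 2 and a line at the mean of each group. The groups overlap in every panel, and Il6 is drawn from 3 reads in all.

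Nlrp3, the sensor, lies on chromosome 11 from 59432394 to 59457782 of GRCm39. It had 30 and 32 reads in the HFD-WT libraries and 26 and 28 reads in the HFD-KO libraries. These were 1.04 and 1.16 CPM in the HFD-WT libraries and 0.988 and 1.17 CPM in the HFD-KO libraries, so that both the lowest and the highest value came from HFD-KO. The log2 fold change was -0.03 (SE 0.33, edgeR adjusted p = 0.987). With 29 reads on average, counting alone gives a coefficient of variation of 18.6%, and the 4 libraries varied by 8.47%.

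Pycard, which encodes the adaptor ASC, lies on chromosome 7 from 127588880 to 127593039. It stood at 1.73 and 1.49 CPM in the HFD-WT libraries and at 2.05 and 1.30 CPM in the HFD-KO libraries. The HFD-KO replicates thus held the highest and the lowest value, on either side of both HFD-WT libraries, and the log2 fold change was 0.06 (SE 0.32, edgeR adjusted p = 0.973). The gene shares 485 of its 3800 annotated exon bases in GENCODE M21 with Gm45205 on the other strand, and the use of strand in counting is not given in the sources used here. Gm45205 had 3 reads in all 4 libraries together.

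Casp1, the protease of the complex, lies on chromosome 9 from 5298508 to 5307290 and showed the same order within HFD-KO. Its values were 1.45 and 1.71 CPM in the HFD-WT libraries and 2.17 and 1.42 CPM in the HFD-KO libraries. HFD-KO replicate 1 was the highest library and HFD-KO replicate 2 the lowest, with a log2 fold change of 0.19 (SE 0.31, edgeR adjusted p = 0.892). Without HFD-KO replicate 1 the log2 fold change was -0.15. The signs of Pycard, Il1b, Il18 and Tnf turned in the same way, to -0.31, -0.072, -0.11 and -0.043. That of Nlrp3 turned the other way, to 0.094. Casp4, the caspase that senses intracellular lipopolysaccharide, had 1.39 ± 0.48 CPM (SD, n = 2) in the HFD-WT libraries and 1.38 ± 0.18 CPM in the HFD-KO libraries.

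Gsdmd, the pore-forming substrate, was the most abundant gene of the set and lies on chromosome 15 from 75734176 to 75739257. It had between 646 and 745 reads per library, or 25.7 and 26.0 CPM in the HFD-WT libraries and 25.9 and 27.0 CPM in the HFD-KO libraries. The 4 values lay close together, with the lower HFD-KO value between the HFD-WT values. The log2 fold change was 0.03 (SE 0.080, edgeR adjusted p = 0.936), and its 95% interval ran from 0.898-fold to 1.16-fold.

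Il1b and Il18 encode the cytokines that caspase-1 matures. Il1b, on chromosome 2 from 129206490 to 129213059, stood at 1.97 and 1.82 CPM in the HFD-WT libraries and at 2.20 and 1.80 CPM in the HFD-KO libraries (log2 fold change 0.08, SE 0.26, edgeR adjusted p = 0.951). Il18, on chromosome 9 from 50466127 to 50493140, stood at 7.08 and 6.43 CPM in the HFD-WT libraries and at 7.37 and 6.28 CPM in the HFD-KO libraries (log2 fold change 0.02, SE 0.15, edgeR adjusted p = 0.984). For both genes the HFD-KO replicates enclosed the HFD-WT values. The 95% interval of Il18 ran from 0.787-fold to 1.30-fold. The span of Il18 touches those of Bco2 and Tex12 on the other strand, with 0 shared exon bases in GENCODE M21.

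Tlr4, the receptor of the priming step, lies on chromosome 4 from 66745821 to 66848521. It stood at 1.14 and 1.35 CPM in the HFD-WT libraries and at 1.37 and 1.26 CPM in the HFD-KO libraries, with a log2 fold change of 0.08 (SE 0.31, edgeR adjusted p = 0.962). Ccl2, the chemokine that draws CCR2-bearing monocytes, lies on chromosome 11 from 81926397 to 81928279. It stood at 2.11 and 2.44 CPM in the HFD-WT libraries and at 2.24 and 2.18 CPM in the HFD-KO libraries, and both HFD-KO values fell between the HFD-WT values. Its log2 fold change was -0.04 (SE 0.24, edgeR adjusted p = 0.977).

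Tnf and Il6 were at the edge of what these libraries could show. Tnf, on chromosome 17 from 35418357 to 35420983, had 4 and 13 reads in HFD-WT and 13 and 7 reads in HFD-KO libraries, or 0.138 and 0.473 CPM against 0.494 and 0.293 CPM. The lowest value was an HFD-WT library and the groups overlapped, with a log2 fold change of 0.39 (SE 0.68, edgeR adjusted p = 0.90). Leaving out each library in turn moved it from -0.26, without HFD-WT replicate 1, to 1.49, without HFD-WT replicate 2. Il6, on chromosome 5 from 30218112 to 30224979, had 2 and 0 reads in HFD-WT and 0 and 1 reads in HFD-KO libraries. A count of 0 allows up to 3 reads, which is 0.104 to 0.126 CPM at these depths and covers counting error only, so every library was at or under that floor for Il6 and no fold is given.

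The promoters of Il1b, Tnf and Il6, the cytokine genes of the set that are best known as inducible, are shown. Their windows come from RefSeq on GRCm38.p6 and run from 250 bases before the transcription start to 50 bases after it. Capitals mark either the letters TATAAA, the core of a TATA box, or a match to an NF-kB consensus, searched on both strands. NF-kB is the factor that acts downstream of TLR4. The consensus was GGGRNNYYCC, with R for A or G, Y for C or T and N for any base. Other forms of the site were not searched. The windows are chr2:129371090-129371389 on the minus strand for Il1b, chr17:35201958-35202257 on the minus strand for Tnf and chr5:30012864-30013163 on the plus strand for Il6.
Il1b: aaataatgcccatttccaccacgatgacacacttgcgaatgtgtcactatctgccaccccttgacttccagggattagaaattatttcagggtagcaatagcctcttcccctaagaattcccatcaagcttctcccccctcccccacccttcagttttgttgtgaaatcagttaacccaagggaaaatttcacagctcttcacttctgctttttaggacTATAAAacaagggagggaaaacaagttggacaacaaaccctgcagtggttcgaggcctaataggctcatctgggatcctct
Tnf: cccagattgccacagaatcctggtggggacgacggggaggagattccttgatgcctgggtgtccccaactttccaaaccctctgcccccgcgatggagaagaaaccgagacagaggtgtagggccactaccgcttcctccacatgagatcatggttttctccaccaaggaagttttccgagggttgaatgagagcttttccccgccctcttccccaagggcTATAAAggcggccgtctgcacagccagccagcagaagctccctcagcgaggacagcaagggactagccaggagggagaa
Il6: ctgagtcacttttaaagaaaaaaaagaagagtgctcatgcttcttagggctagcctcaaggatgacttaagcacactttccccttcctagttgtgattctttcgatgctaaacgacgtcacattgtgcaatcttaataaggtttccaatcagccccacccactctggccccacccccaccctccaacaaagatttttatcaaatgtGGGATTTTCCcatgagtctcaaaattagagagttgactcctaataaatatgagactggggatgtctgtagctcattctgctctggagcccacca
TATAAA starts 31 bases before the start of Il1b and 29 bases before that of Tnf, and the Il6 window holds an NF-kB match that starts 44 bases before the start. No window shown held both motifs. TATAAA was found in 13.6% and the NF-kB consensus in 8.46% of the 32851 promoter windows of this length, so each is a description of these letters only. Windows existed for 7 of the 10 genes. Those of Pycard and Casp1 held neither motif, Il18 held TATAAA on the other strand 175 bases before its start, and 1 of 2 Nlrp3 windows held an NF-kB match 186 bases before the start.

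Levels were compared between genes on the TPM scale of the deposited table, which divides by transcript length. Gsdmd stood first with 26.1 to 28.1 TPM, followed by Il18 with 11.9 to 13.7 TPM and Ccl2 with 5.16 to 6.11 TPM. Il1b had 2.60 to 3.09 TPM, Casp1 1.71 to 2.53 TPM and Pycard 0.668 to 1.03 TPM. Each of these 6 genes was above the next in the order in every library. Nlrp3 with 0.464 to 0.585 TPM, Tlr4 with 0.415 to 0.502 TPM and Tnf with 0.168 to 0.588 TPM could not be ordered, since their ranges overlapped, and Il6 came last with 0 to 0.0566 TPM. The effector Gsdmd was thus at the 83.1st percentile of the 17301 genes with a read, and the sensor Nlrp3 at the 30.9th percentile. In bulk tissue, a gene used by few cells and a gene used weakly by many cannot be told apart, and the same holds for fewer cells of a type and less RNA per cell.

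**Figure D2:**
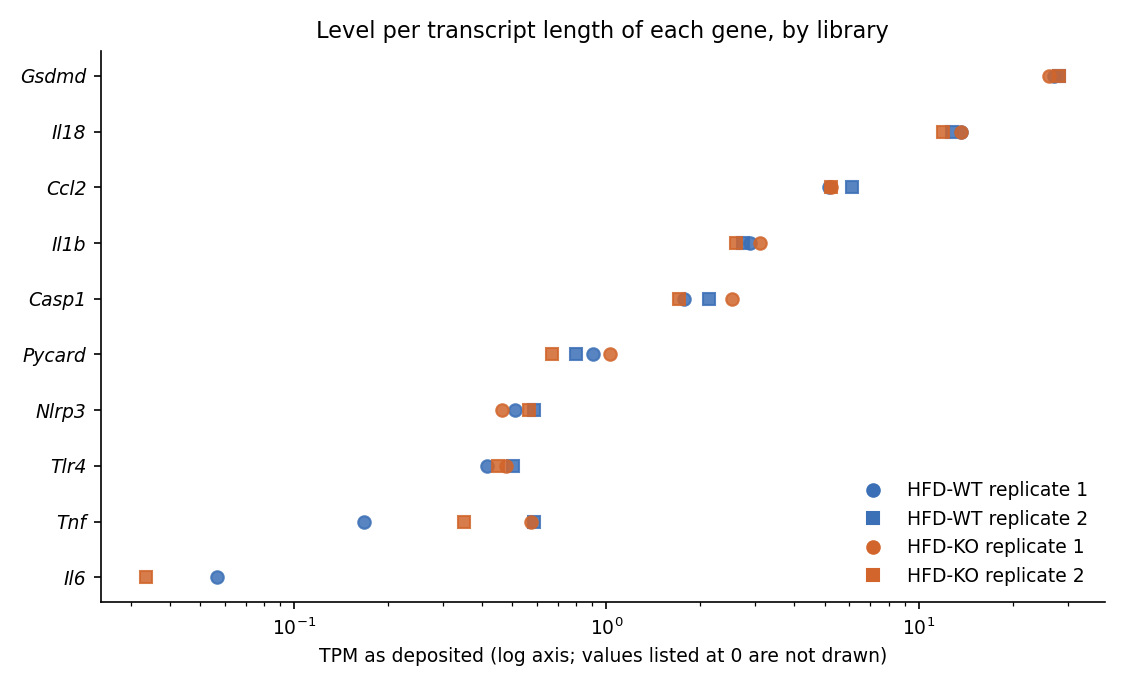
Deposited TPM (horizontal log axis) of the 10 genes, ordered by their mean, with each library as a point. Gsdmd lies near 27.3 TPM and Nlrp3 near 0.531 TPM on average, the points of both genotypes lie together, and the 2 values of Il6 listed at 0 are not drawn.

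For 8 of the 9 tested genes the 95% interval of the fold change lay within 2-fold in either direction. It ran from 0.574-fold to 1.68-fold for Nlrp3, from 0.621-fold to 1.76-fold for Pycard, from 0.687-fold to 1.89-fold for Casp1 and from 0.695-fold to 1.61-fold for Il1b. The intervals of Ccl2 and Tlr4 were 0.661-fold to 1.43-fold and 0.639-fold to 1.75-fold. For Tnf it reached from 0.434-fold to 3.93-fold, so that a 2-fold difference in either direction lay within the interval of this gene, whose libraries varied by 47.8% where counting alone gives 32.9%. For 5 of the 9 genes the 4 libraries varied by less than counting error alone would give.

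**Figure D3:**
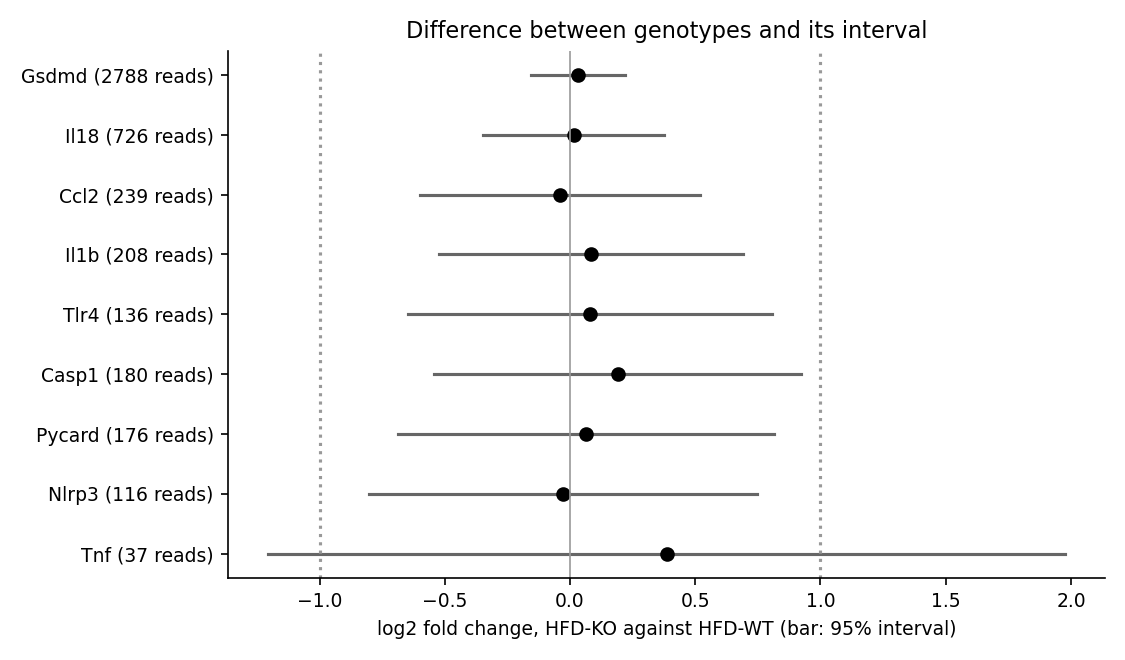
Log2 fold change, positive where HFD-KO was higher than HFD-WT, (points) with its 95% interval from the edgeR fit (bars) for the 9 tested genes, with the total number of reads in brackets and dotted lines at a 2-fold difference. The interval is widest for Tnf with 37 reads and narrowest for Gsdmd with 2788 reads, and each includes 0.

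Of the 112 tested genes in 7 pathway lists, 0 passed an adjusted p under 0.05, while 11 lay under 0.05 without adjustment, 6 positive and 5 negative, a share close to the 8.98% of all genes tested. Among sensors and regulators of inflammasomes, of 22 listed genes 20 were tested, 6 with a positive and 14 with a negative log2 fold change (median -0.065), and 0 passed an adjusted p under 0.05. Nlrp6, a sensor best known from epithelia, had 59.9 to 82.1 TPM, and Nlrp12 had 16.3 to 17.9 TPM, both above Nlrp3 in every library. Nlrp6 had 153 ± 2.3 CPM (SD, n = 2) in the HFD-WT libraries and 196 ± 29 CPM in the HFD-KO libraries, a log2 fold change of 0.36 (SE 0.11, unadjusted p = 0.0135, edgeR adjusted p = 0.416). The adjusted p was 0.00088 without HFD-KO replicate 2, but 0.287 without HFD-KO replicate 1, where the log2 fold change was 0.20, and 0.832 and 0.9998 without HFD-WT replicate 1 and 2. Cybb, the phagocyte NADPH oxidase subunit, had 17.5 ± 2.4 CPM in the HFD-WT libraries and 12.0 ± 2.2 CPM in the HFD-KO libraries, a log2 fold change of -0.55 (SE 0.15, unadjusted p = 0.0086, edgeR adjusted p = 0.369). Its adjusted p was 0.0013 without HFD-KO replicate 1, 0.222 without HFD-KO replicate 2, where the log2 fold change was -0.37, and 0.461 and 0.9998 without HFD-WT replicate 1 and 2. Txnip, the thioredoxin-binding protein that can engage NLRP3, had a log2 fold change of -0.33 (SE 0.14, edgeR adjusted p = 0.556). It was -0.53 without HFD-KO replicate 2 (edgeR adjusted p = 0.0020), -0.15 without HFD-KO replicate 1 (0.537) and -0.20 without HFD-WT replicate 2 (0.9998). Aim2, the sensor of cytosolic DNA, stood at 1.35 and 1.42 CPM in the HFD-WT libraries and at 0.950 and 0.461 CPM in the HFD-KO libraries (log2 fold change -0.95, SE 0.41, edgeR adjusted p = 0.557).

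Of the ligands, receptors and antagonists of the interleukin 1 family, 9 of 11 genes were tested and 0 passed an adjusted p under 0.05, with 6 positive and 3 negative log2 fold changes (median 0.075). Il1rap, the accessory chain of the interleukin-1 receptor, had 102 ± 2.5 CPM in the HFD-WT libraries and 119 ± 8.6 CPM in the HFD-KO libraries (log2 fold change 0.22, SE 0.086, unadjusted p = 0.035, edgeR adjusted p = 0.510). Il18bp, the secreted antagonist of interleukin-18, stood at 13.3 and 16.7 CPM in the HFD-WT libraries and at 11.7 and 12.4 CPM in the HFD-KO libraries (log2 fold change -0.32, SE 0.13, unadjusted p = 0.047, edgeR adjusted p = 0.546). Il1r1, the signalling receptor, stood at 55.2 and 76.3 CPM in the HFD-WT libraries and at 31.1 and 63.4 CPM in the HFD-KO libraries. Its groups overlapped (edgeR adjusted p = 0.689), and its log2 fold change of -0.48 rested on HFD-KO replicate 1. It was -0.05 without that library (edgeR adjusted p = 0.899), -0.22 without HFD-WT replicate 2 (0.9998) and -1.08 without HFD-KO replicate 2 (2.5e-06). Il1rn, the receptor antagonist, had 8.70 ± 0.49 CPM in the HFD-WT libraries and 8.98 ± 0.087 CPM in the HFD-KO libraries.

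All 32 genes of the route from TLR4 to NF-kB were tested, and 0 passed an adjusted p under 0.05. Of these, 22 had a positive and 10 a negative log2 fold change (median 0.049). The co-receptor genes Cd14 and Ly96 had log2 fold changes of -0.18 and -0.20 (SEs 0.21 and 0.28). Lbp, which hands lipopolysaccharide to CD14, and the kinase gene Chuk had the highest CPM of the list and log2 fold changes of 0.04 and 0.06. The genes with an unadjusted p under 0.05 were Irak2, a kinase of the receptor complex, with 23.0 ± 0.91 CPM in the HFD-WT libraries and 27.3 ± 0.60 CPM in the HFD-KO libraries (log2 fold change 0.25, SE 0.082, edgeR adjusted p = 0.441), and Tab1, a partner of the kinase TAK1, with 3.85 ± 0.76 CPM and 5.79 ± 0.84 CPM (log2 fold change 0.59, SE 0.21, edgeR adjusted p = 0.477). The share of 2 genes of 32 can be set beside the 8.98% of all genes tested.

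Among the other Toll-like receptors, 9 of 10 tested genes had a negative log2 fold change (median -0.35) and 0 passed an adjusted p under 0.05. For 5 of the 10 both HFD-KO values lay below both HFD-WT values, which was so for 20.3% of all genes tested. Tlr13, a receptor for bacterial ribosomal RNA, stood at 2.76 and 3.42 CPM in the HFD-WT libraries and at 1.82 and 1.51 CPM in the HFD-KO libraries (log2 fold change -0.89, SE 0.25, unadjusted p = 0.0093, edgeR adjusted p = 0.373). Tlr6, a partner of TLR2, stood at 0.967 and 1.05 CPM in the HFD-WT libraries and at 0.608 and 0.335 CPM in the HFD-KO libraries (log2 fold change -1.08, SE 0.43, unadjusted p = 0.038, edgeR adjusted p = 0.518). Tlr12 and Tlr5 had the highest CPM and log2 fold changes of 0.07 and -0.01.

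All 15 genes of the receptors and signal carriers of TNF, interleukin-6 and CCL2 were tested, 10 with a positive and 5 with a negative log2 fold change (median 0.021), and 0 had an unadjusted p under 0.05. Il6st, the signalling chain of the interleukin-6 receptor, had 146 ± 4.8 CPM in the HFD-WT libraries and 154 ± 28 CPM in the HFD-KO libraries. Stat3, the factor it activates, had 114 ± 0.87 CPM and 127 ± 24 CPM, with a log2 fold change of 0.16 (SE 0.13, edgeR adjusted p = 0.755). It was 0.34 without HFD-KO replicate 1 (adjusted p = 0.029) and -0.049 without HFD-KO replicate 2 (0.932). Ccr2, the receptor of CCL2, had 96 and 99 reads in the HFD-WT and 93 and 46 reads in the HFD-KO libraries.

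Of 17 other chemokine genes 16 were tested, 6 with a positive and 10 with a negative log2 fold change (median -0.12), and 0 passed an adjusted p under 0.05. Cxcl12, the ligand of CXCR4, stood at 289 and 264 CPM in the HFD-WT libraries and at 378 and 361 CPM in the HFD-KO libraries (log2 fold change 0.42, SE 0.089, unadjusted p = 0.0020, edgeR adjusted p = 0.233). Its adjusted p was 0.306 with the replicate block and 0.014 in the Wald test of DESeq2. It was 0.011 and 0.0036 without HFD-KO replicate 1 and 2, and 0.539 and 0.9998 without HFD-WT replicate 1 and 2. Ccl6, a chemokine of myeloid cells, stood at 12.2 and 16.9 CPM in the HFD-WT libraries and at 9.04 and 10.1 CPM in the HFD-KO libraries (log2 fold change -0.60, SE 0.17, unadjusted p = 0.0083, edgeR adjusted p = 0.369). Its adjusted p was 0.020 without HFD-KO replicate 2, 0.070 without HFD-KO replicate 1, and 0.204 and 0.9998 without HFD-WT replicate 1 and 2. Ccl9, of the same kind, had a log2 fold change of -0.21 (SE 0.11).

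**Figure D4:**
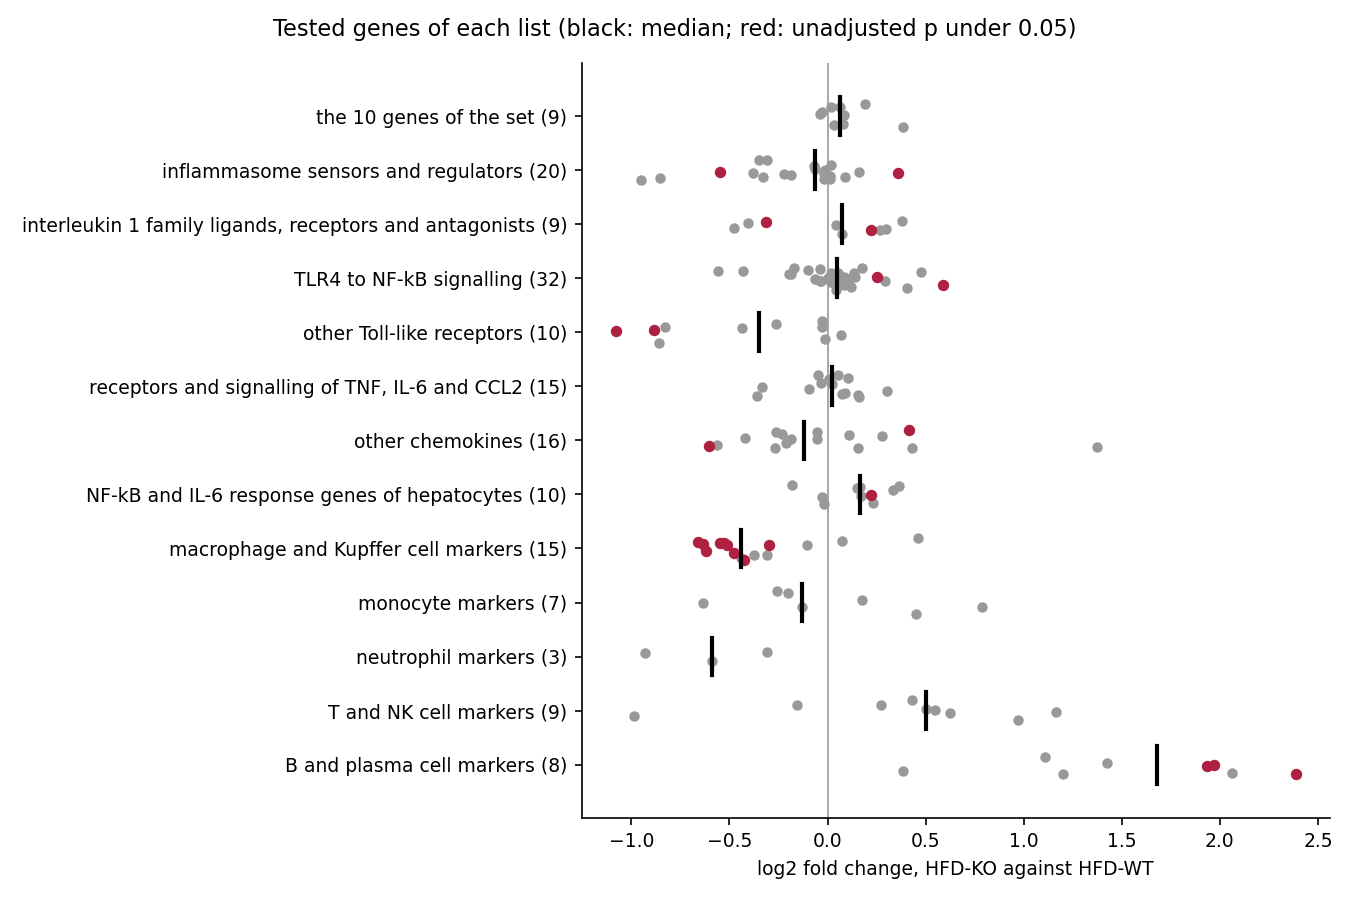
Log2 fold change, positive where HFD-KO was higher than HFD-WT, (horizontal axis) of every tested gene in the lists drawn. These are the set, the pathway lists and the macrophage and Kupffer, monocyte, neutrophil, T and NK, and B and plasma cell markers. Dendritic cell markers are not drawn. The number tested is in brackets, the median is a black line and an unadjusted p under 0.05 is in red. The median of the set is 0.06 and that of the macrophage and Kupffer cell markers is -0.44.

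Markers of the cells that are the usual source of these transcripts were read beside them. Of 15 macrophage and Kupffer cell markers, 13 had a negative log2 fold change (median -0.44), 9 with an unadjusted p under 0.05 against 4.73% of all genes tested, and 0 with an adjusted p under 0.05. Their summed level was 579 and 718 CPM in the HFD-WT libraries and 492 and 456 CPM in the HFD-KO libraries, so the groups did not overlap. The highest marker, Mpeg1, stood at 119 and 139 CPM in the HFD-WT libraries and at 93.4 and 82.8 CPM in the HFD-KO libraries (edgeR adjusted p = 0.212). No such separation was seen in the 10 genes of the set, whose summed level was 42.4 and 42.9 CPM in the HFD-WT libraries and 44.7 and 42.8 CPM in the HFD-KO libraries, most of it from Gsdmd. The difference between the 2 lists was not tested.

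None of the other immune markers had an adjusted p under 0.05. Over 8 neutrophil markers the sum was 7.73 and 9.02 CPM in the HFD-WT libraries and 4.29 and 7.96 CPM in the HFD-KO libraries, 3 of the 8 passed the filter, and the defining gene Ly6g had 1 read in the 4 libraries. Over 6 dendritic cell markers it was 10.1 and 13.3 CPM in the HFD-WT libraries and 8.28 and 5.78 CPM in the HFD-KO libraries, with 5 of 5 tested genes negative. Of these 5, 2 had an unadjusted p under 0.05 by edgeR, against 4.73% of all genes tested with lower counts. Of 9 tested T and NK cell markers 7 and of 8 B and plasma cell markers 8 had a positive log2 fold change, and the sums of both lists were highest in HFD-KO replicate 1. The unadjusted p was under 0.05 for 3 of the 8 B and plasma cell markers, against 4.25% of all genes tested with higher counts. It was under 0.05 for 0 of the neutrophil, monocyte, and T and NK cell markers. Of 7 monocyte markers 3 had a positive and 4 a negative log2 fold change, and nearly all of their sum of 1584 to 2125 CPM was Fn1, which hepatocytes also make. Of the 9 tested genes of the set, 6 were highest in HFD-KO replicate 1, the library with most lymphocyte transcripts, 4 were lowest in HFD-KO replicate 2 and 4 in HFD-WT replicate 1. The part of lymphocyte or macrophage RNA in the values of the set was not tested.

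**Figure D5:**
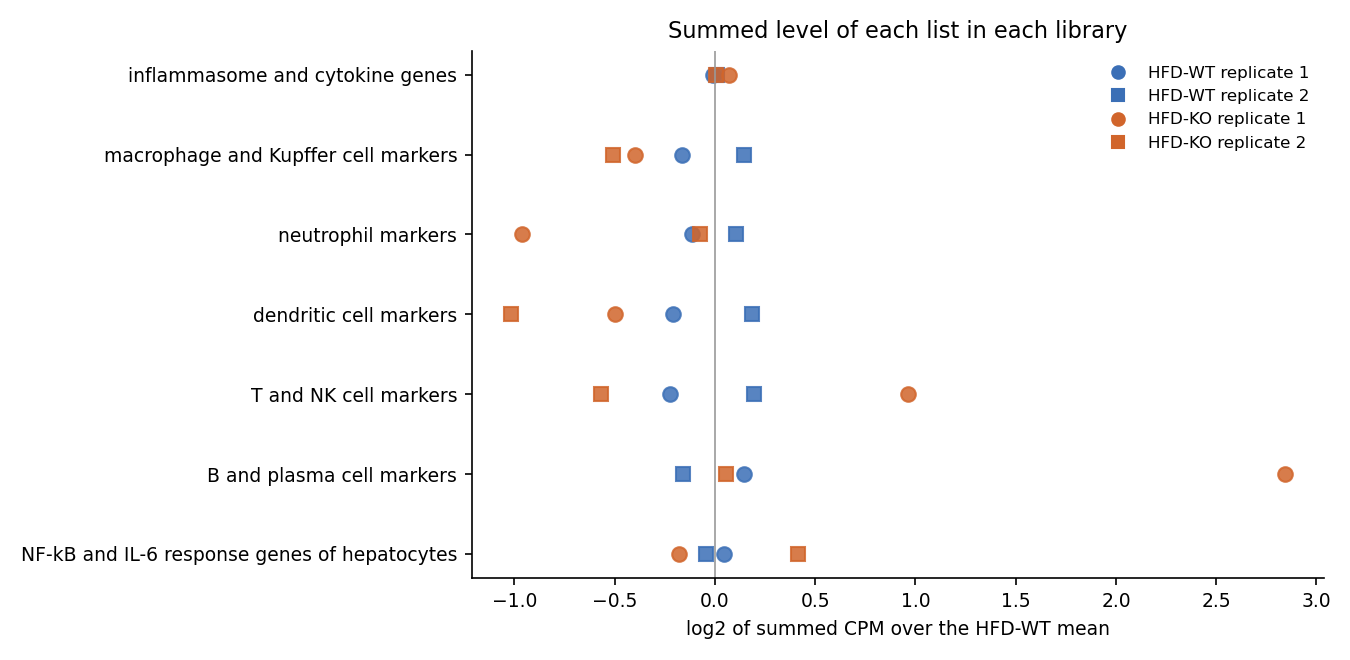
Log2 of the summed CPM of each list over the mean of the HFD-WT libraries (horizontal axis), with each library as a point. The sum of the inflammasome and cytokine genes, most of it from Gsdmd, stays near 0 in the 4 libraries and does not show the single genes. HFD-KO replicate 1 stands apart in the B and plasma cell markers with 125.8 CPM.

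Hepatocyte genes that respond to interleukin-6 and NF-kB were set beside the cytokines as a readout further down the route. All 10 genes were tested, 7 with a positive and 3 with a negative log2 fold change (median 0.17), and 0 passed an adjusted p under 0.05. Crp had 308 ± 5.5 CPM in the HFD-WT libraries and 359 ± 30 CPM in the HFD-KO libraries (log2 fold change 0.22, SE 0.093, unadjusted p = 0.045, edgeR adjusted p = 0.540). The adjusted p was 0.047 without HFD-KO replicate 1 and between 0.694 and 0.9998 without each of the others. Hp, which encodes haptoglobin, stood at 5412 and 5142 CPM in the HFD-WT libraries and at 4411 and 6008 CPM in the HFD-KO libraries. Fgb, a fibrinogen chain, stood at 2824 and 2444 CPM in the HFD-WT libraries and at 2650 and 4136 CPM in the HFD-KO libraries, with a log2 fold change of 0.37 (edgeR adjusted p = 0.664) that rested on HFD-KO replicate 2. It was 0.0077 without that library (0.992) and 0.65 without HFD-KO replicate 1 (1.1e-05). The summed level was 11649 and 10930 CPM in the HFD-WT libraries but 9977 and 15047 CPM in the HFD-KO libraries, so that HFD-KO replicate 2 was the highest library and HFD-KO replicate 1 the lowest.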

How the data were processed

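Liver RNA of 2 HFD-WT and 2 HFD-KO libraries was analysed. The authors extracted RNA with TRIzol, used a directional library kit of MGI Tech, sequenced paired 100-base reads, aligned them to mm10 after trimming with the MGI Tech tool, and used Partek Genomics Suite and GENCODE genes for the expression estimates. The gene positions in the table are those of GRCm39. Tool versions, the use of strand and the treatment of reads with several alignments are not given in the sources used here. The deposited counts are whole reads per gene without normalization and were the values tested. The deposited TPM values were used for levels between genes. The deposited RPKM values were not used. The deposited CPM columns, a score whose library size had been adjusted, were not used.

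The test was edgeR 4.0.16 in R 4.3.3 (filterByExpr, TMM, quasi-likelihood test, two-sided, Benjamini-Hochberg adjustment over 12967 genes). The standard error (SE) was derived from the test, as the absolute log2 fold change divided by the square root of the quasi-likelihood F statistic. Intervals of 95% used this standard error and the t distribution with the residual and prior degrees of freedom. With 2 libraries against 2, an exact permutation test cannot give a p below 0.333 and was not run. Within a group, libraries varied beyond counting error (chi-square per gene 10.3 for HFD-WT and 41.0 for HFD-KO). Replicate numbers are shared by the groups without a stated pairing. Alternatives were DESeq2 1.42.0, DESeq2 size factors, library size alone, no filter, a replicate block and leaving out each library. The fit was also run on simulated data whose means and spread were taken from the main fit. Of 200 genes changed 1.5-fold, 80 were recovered, with 155 at 2-fold and 190 at 4-fold. False calls numbered 8, 15 and 14. The changed genes were drawn from all genes tested, and both groups were given the same spread, unlike the libraries themselves. The recovery therefore does not apply to genes with as few reads as most of the set, for which it was not measured. The 10 genes, the 7 pathway lists and the 11 marker lists were chosen with earlier results of these data known. Beyond the 10 genes, those named had an unadjusted p under 0.05 or were among the 2 with the highest CPM in a pathway list, with these exceptions. Mpeg1, Fn1 and Alb were the markers with the highest CPM. Adarb1 and Adar were named as the genes of ADAR2 and ADAR1, and Bco2, Tex12 and Gm45205 as neighbours of Il18 or Pycard. Genes were also named where their profile lay nearest to one of the set. Nlrp12, Casp4, Aim2, Il1rn, Cd14, Ly96, Ccr2, Ly6g and Col1a1 were named after their values were seen. Analyses of tables used Python 3.11.15 with pandas 2.3.3 and plots matplotlib 3.10.9.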

Additional observations from a re-analysis of the deposited data

How the results depend on the processing

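In the 9 tested genes of the set, 0 passed an adjusted p under 0.05 and 0 an unadjusted p under 0.05 under every alternative run, and their adjusted p lay between 0.737 and 0.9999. Of 81 alternative values, 15 had the other sign, so no direction is given for these genes. With the library size alone Gsdmd was at -0.015, Il18 at -0.029 and Lbp at -0.0031 on the log2 scale. Leaving out each library in turn, the log2 fold change ran from -0.15 to 0.094 for Nlrp3, from -0.31 to 0.35 for Pycard, from -0.15 to 0.45 for Casp1, from -0.0011 to 0.065 for Gsdmd, from -0.072 to 0.22 for Il1b, from -0.11 to 0.12 for Il18, from -0.26 to 1.49 for Tnf, from -0.15 to 0.071 for Ccl2 and from -0.041 to 0.20 for Tlr4. It also crossed 0 for Lbp (-0.19 to 0.25), Chuk (-0.016 to 0.13), Tlr12 (-0.079 to 0.20), Tlr5 (-0.26 to 0.20), Il6st (-0.13 to 0.25), Stat3 (-0.049 to 0.34) and Hp (-0.26 to 0.19). Over all genes, the 10 calls became 6 with the library size alone, 162 with no filter, 120 with DESeq2's Wald test and between 0 and 705 with a library left out, the last without HFD-KO replicate 1. Leaving out a library leaves an arm of 1, which is assumed to vary like the other group. With the replicate block 20 genes were called. The deviations of same-numbered libraries correlated at -0.076, so the numbers were not taken to pair them, and the block changed no call in the set, while it brought Adarb1 to an adjusted p of 0.040. In the 112 tested pathway genes, the 0 calls became 1 with DESeq2's Wald test and 0 to 15 with a library left out. The 11 pathway genes with an unadjusted p under 0.05 became 20 with no filter and 3 to 32 with a library left out. The cause of these moves was not tested. Of the set, Tnf and Il6 had the fewest reads.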

Other observations

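Markers of cells other than immune cells were counted in the same way. Of 7 endothelial markers 3 had a positive and 4 a negative log2 fold change (median -0.015), of 6 hepatocyte markers 5 had a positive one (median 0.15), and of 5 cholangiocyte markers 4 had a negative one (median -0.18). Stellate cell markers, which include the fibrillar collagens, had a negative log2 fold change for 7 of 8 genes (median -0.38), with Col1a1 at 30.3 and 34.2 CPM in the HFD-WT libraries and 21.0 and 14.4 CPM in the HFD-KO libraries (log2 fold change -0.87, SE 0.17, edgeR adjusted p = 0.210). All 5 red cell markers had a positive one (median 0.51), and their sum was highest in HFD-KO replicate 2 with 1146 CPM against 600.5 to 811 CPM. None of these markers had an adjusted p under 0.05 by edgeR. The unadjusted p was under 0.05, with lower counts in HFD-KO, for 4 of 8 stellate cell, 1 of 7 endothelial and 1 of 5 cholangiocyte markers. With higher counts, it was under 0.05 for 3 of 5 red cell and 1 of 6 hepatocyte markers. The share over all genes tested was 8.98%, 4.25% with higher and 4.73% with lower counts in HFD-KO. The stellate and red cell shares lay above these.

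The profile of each tested gene of the set over the 4 libraries was set against 190 tested genes of the other lists, by the Euclidean distance of log2 CPM centred on each gene's mean. Ccl2 lay nearest to Naip2, a sensor of bacterial secretion systems, at a distance of 0.027 on the log2 scale, and then to Irak4 at 0.041. Nlrp3 lay nearest to Cdh5 at 0.039 and Casp1 to Nlrp1b at 0.050. Gsdmd lay nearest to Sigirr at 0.058, Il18 to Traf2 at 0.052, Il1b to Tlr12 at 0.073, Tlr4 to Tollip at 0.092, Pycard to Tlr5 at 0.13 and Tnf to Klrb1c at 0.32. With 4 libraries and low counts, these distances describe the libraries only.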
